A study of Mus musculus with 18 samples.

Results

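The genes described here encode the heat shock factors and the chaperones that fold proteins in the cytosol, together with their helper proteins. The group was given as a list of 38 mouse symbols drawn up by function, and all 38 were found among the 54347 rows of the count table. Despite a working name that speaks of the cytosol, 4 of the 38 (Hspa9, Hspd1, Hspe1 and Trap1) encode mitochondrial chaperones and are kept apart below. By role the list holds 2 heat shock factors, 9 stress-inducible chaperones and co-chaperones, 9 constitutive cytosolic HSP70, HSP90 and J-domain genes, 6 co-chaperones of HSP70 and HSP90, 8 subunits of the chaperonin TRiC/CCT and the 4 mitochondrial genes.

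RNA came from leukemia stem cells sorted out of the bone marrow of C57BL/6JRj mice at day 30 of leukemia, 7000 cells per mouse. The mutant group, Prx1-Cxcl12-mutant by genotype, had 5 mice (numbered 6, 7, 8, 10 and 12), and the control group, Prx1-Cxcl12-wild type, had 4 mice (1, 2, 3 and 4). Each mouse gave 2 technical libraries of 3' ends of polyadenylated RNA (MARS-seq adapted to bulk RNA), which were summed, so that the mouse is the unit of replication. Prx1 marks mesenchymal stromal cells of the marrow and Cxcl12 encodes a chemokine of that niche, so the genotype concerns the surroundings of the sorted cells rather than a change made in them. The Cre line and floxed allele, the leukemia driver, the sort markers, and the age and sex of the mice are not stated in the sources at hand.

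Heat shock factor 1 (HSF1) is held inactive by chaperones and, when unfolded protein engages these, forms trimers that bind heat shock elements in the promoters of inducible chaperone genes. HSP70 proteins bind exposed stretches of unfolded clients, J-domain proteins deliver the clients, nucleotide exchange factors of the BAG and HSP110 families release them, and HSP90 with its co-chaperones matures kinases and steroid receptors. TRiC/CCT is a ring-shaped cytosolic chaperonin that folds actin and tubulin, and haematopoietic stem cells and leukemia cells are known to depend closely on protein quality control.

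Total counts ran from 11766553 to 16785063 in control mice and from 15959104 to 25485975 in mutant mice, and a level of 3 counts was 0.25 CPM (counts scaled to library size) in the shallowest mouse and 0.12 in the deepest. The mutant group was thus sequenced more deeply, and the part of depth in any value below was tested only by adding the total as a covariate. Markers of the myeloid lineage were detected for 10 of 10 genes in the summed counts (Mpo, Elane and Kit among them), with a summed level of 9560 to 11600 CPM in control mice and 8940 to 17400 CPM in mutants. Most of that level came from Prtn3, Ctsg, Elane and Mpo, whose log2 fold changes (mutant over control) were above 0. The other 6 genes, Kit and Csf3r among them, were below 0. The median over the 10 was -0.137, and none passed the test described below. The summed stromal and endothelial markers were at 38.3 to 51.9 CPM in control mice and 34.6 to 47.9 CPM in mutants, and 2 to 5 of their 8 genes were at 0 in each mouse. Most of this sum was Pecam1, at 36.9 to 50.9 CPM in control mice and 31.6 to 46.6 CPM in mutants. The sum therefore says little of the rest of that list. In sorted bulk samples, fewer cells of a type and less RNA per cell cannot be told apart.

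The heat shock element is built from units of GAA and its complement TTC, spaced by 2 bases and pointing in alternating directions. The sequences shown first are the 250 bases before the start of Hspa1a and of Hspa1b, the stress-inducible HSP70 genes, because this pair varied most among the mice and varied together. RefSeq places the windows on GRCm38.p6 at chr17:34972157-34972406 and chr17:34959239-34959488, both on the minus strand, and capitals mark the inverted pair of units (GAANNTTC).
Hspa1a: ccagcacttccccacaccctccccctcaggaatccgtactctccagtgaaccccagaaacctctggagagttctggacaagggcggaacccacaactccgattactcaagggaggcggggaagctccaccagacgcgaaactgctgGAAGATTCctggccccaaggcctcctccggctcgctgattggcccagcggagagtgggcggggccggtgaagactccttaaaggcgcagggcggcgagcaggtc
Hspa1b: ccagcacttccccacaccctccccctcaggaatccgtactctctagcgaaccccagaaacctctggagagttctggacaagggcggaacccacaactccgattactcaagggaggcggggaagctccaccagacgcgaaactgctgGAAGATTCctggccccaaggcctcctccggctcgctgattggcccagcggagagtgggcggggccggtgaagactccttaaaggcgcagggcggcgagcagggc
The windows differ at 3 of 250 positions (98.8% identical), and the pair of units begins 104 bases before the start in both.

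Over the gene list, 32 of 38 members had a RefSeq promoter window of 250 bases. A pair of units on either strand (GAANNTTC or TTCNNGAA) was present for 13 of these 32, against 14.5% of 27025 genes and 12.8% of 32851 windows in the whole table. Of the 8 stress-inducible members with a window, 5 held a pair (Hspa1a, Hspa1b, Hspb1, Hsph1 and Dnajb4), as did 2 of 7 constitutive cytosolic members, 2 of 6 co-chaperones, 2 of 7 TRiC/CCT members and 2 of 3 mitochondrial members. A run of 3 alternating units (GAANNTTCNNGAA or TTCNNGAANNTTC, each of which also contains the pairs) was present for 3 members, Dnajb6, Hspd1 and Hspe1, against 0.514% of genes. Hspd1 and Hspe1, encoding the mitochondrial chaperonin HSP60 and its lid HSP10, lie head to head, and their windows share one such element with 4 units in a row. It is shown as 30 bases at chr1:55088053-55088082 on the plus strand, with the units and their spacers in capitals, because this is the longest such run in a member's window.
Hspe1: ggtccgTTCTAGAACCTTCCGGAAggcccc
A match of letters describes the window only, and no measurement of factor binding was made in these mice.

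No chaperone gene passed the test across all genes for a difference between mutant and control cells. Of the 38 members, 36 passed the filter on low counts, and 0 of these 36 were called at an adjusted p under 0.05 by edgeR's quasi-likelihood test, where 0.0694% of the 12973 tested genes were called. The smallest adjusted p of a member was 0.509, for the TRiC subunit gene Cct6a. At an unadjusted p under 0.05 the count was also 0 of 36, against 9.85% of all tested genes. It was 3 with DESeq2, 1 with limma-voom on mouse sums, and 0 to 3 when 1 mouse was left out. With limma-voom on the 18 libraries it was 5 (Hsph1, Chordc1, Fkbp4, Cct6a and Hspa9). Adding a replicate block (library number) made it 4, without Chordc1. The 9.85% is of the main edgeR fit, and the share of all genes under the other fits is not given here. The groups overlapped for every tested member. Over all tested genes 4% had groups that did not overlap, and for a list of 36 genes a count of 0 is near that share. DESeq2 and limma-voom called 0 members as well, of 38 and 36 tested.

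The fold changes were small and lay on both sides of 0. Of the 36 tested members, 24 were above 0 and 12 below (66.7% above, against 51.7% of all tested genes), and the median log2 fold change, mutant over control, was 0.042 against 0.009 over all genes. Every 95% interval included 0. For 33 members the interval stayed within a 2-fold change either way and for 31 within 1.5-fold, so larger changes than these lay outside the intervals for those genes. The narrowest interval was that of Dnajb6, from -0.22 to 0.14 (log2), and the widest that of Hspa1a, from -1.46 to 1.55.

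**Figure D1:**
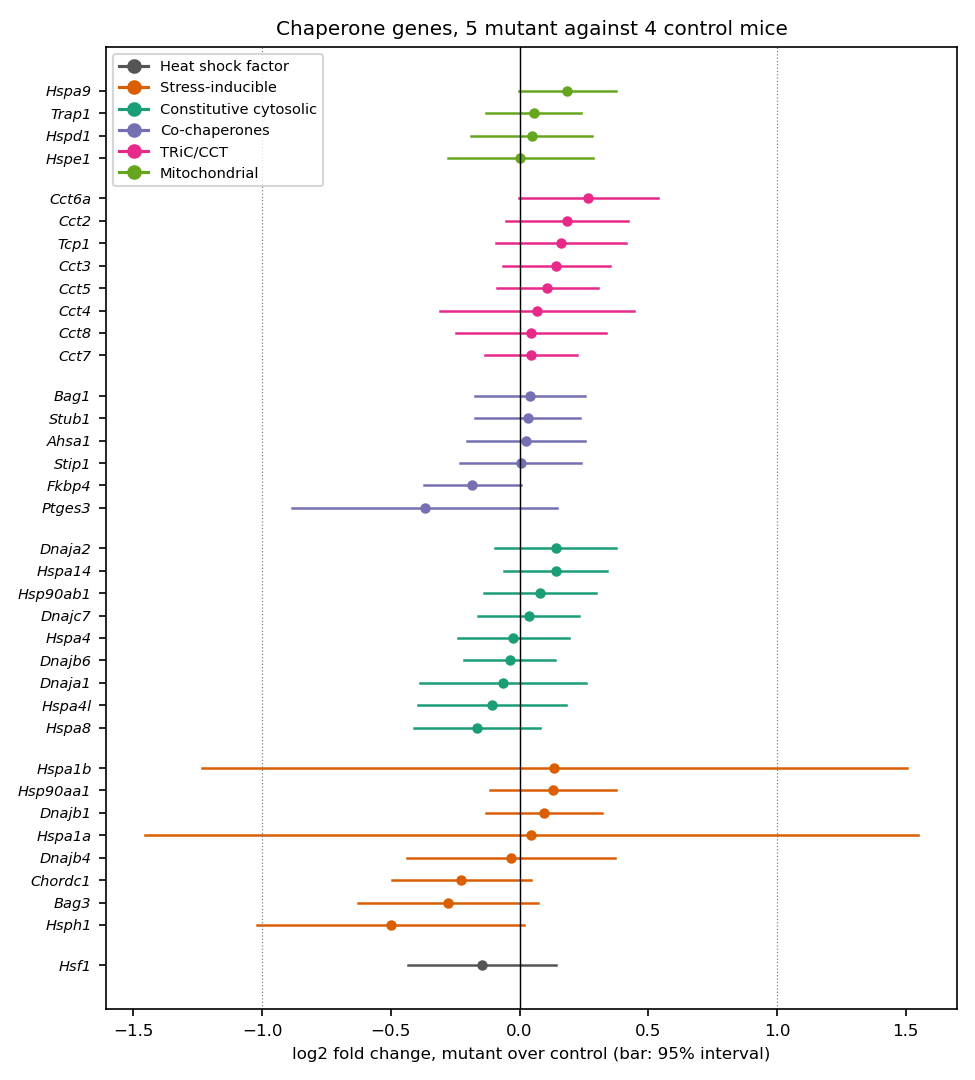
Log2 fold change of each of the 36 tested genes (x axis, mutant over control; point) with its 95% interval from edgeR (bar), grouped by role; dotted lines mark a 2-fold change. Every interval crosses 0, and those of Hspa1a and Hspa1b are the widest.

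Hsf1, the master regulator of the heat shock response, was expressed in all mice, from 30.1 to 49.7 CPM. Its standard deviation over mice within groups was 0.222 (log2 CPM), and 26.3% of the genes with at least 10 CPM had a larger one. Controls 1 to 4 had 31.6, 36.9, 49.7 and 40.2 CPM of Hsf1, and mutants 6, 7, 8, 10 and 12 had 34.9, 30.1, 37.9, 42.1 and 34.1 CPM. The highest mouse was control 3 and the lowest mutant 7, and the groups overlapped (log2 fold change -0.15, SE 0.13, edgeR adjusted p = 0.744). Hsf2, encoding a factor that forms trimers with HSF1, did not pass the filter: it had 4, 4, 12 and 12 counts in controls and 6, 12, 14, 5 and 11 in mutants.

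Among the stress-inducible genes, those encoding inducible HSP70 differed far more among mice of 1 group than between the group means. The 8 tested members divided evenly, 4 above and 4 below 0, with a median log2 fold change of 0.006. That median turned with the fit: it was -0.249 with limma-voom on mouse sums, -0.228 on the 18 libraries and -0.158 when the total count was a covariate, each with 2 of 8 above 0, and -0.202 without mutant 8. It was 0.072 without mutant 10 and 0.066 without control 2, each with 5 of 8 above 0. More of the alternatives gave a median below 0 than above. Hspb1, the small heat shock protein gene, was close to the floor of 3 counts, with 0, 2, 4 and 2 counts in controls and 0, 0, 0, 0 and 1 in mutants, so no fold is given.

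Hspa1a (chromosome 17, 34969190 to 34972156) stood at 11.6, 31.1, 8.31 and 6.64 CPM in controls 1 to 4 and at 3.91, 2.93, 37.6, 9.46 and 20.6 CPM in mutants 6, 7, 8, 10 and 12. Hspa1b (34956436 to 34959238 on the same chromosome) stood at 34.6, 77.9, 27.9 and 21.3 CPM in control mice and at 13.4, 7.10, 92.2, 36.7 and 72.8 CPM in mutants. Both genes were high in mutant 8, control 2 and mutant 12 and low in mutants 6 and 7, and the order of the mice was the same for both but for control 1 and mutant 10, which changed places. The highest mouse exceeded the lowest 12.8-fold for Hspa1a and 13.0-fold for Hspa1b, both extremes being mutants. The log2 fold changes were 0.05 (SE 0.69) and 0.13 (SE 0.63), with edgeR adjusted p-values of 0.984 and 0.959. The estimates moved with single mice: without control 2 they were 0.76 and 0.67, and without mutant 8 they were -0.66 and -0.32. Their signs also turned in some fits that kept all mice. The sign was that of the main fit in 12 of 21 alternative fits for Hspa1a and 14 of 21 for Hspa1b.

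In the pair, the libraries of a mouse typically differed less than the mice of a group did. Hspa1a was at 37.7 and 37.6 CPM in the libraries of mutant 8, at 20.6 and 20.7 in those of mutant 12, and at 2.70 and 3.28 in those of mutant 7. Its libraries differed more in control 3, at 6.22 and 10.1 CPM, and in mutant 10, at 11.4 and 7.15 CPM. For the pair, the largest gap between libraries was that of Hspa1b in control 1, at 19.1 and 42.5 CPM. The median gap over the 9 mice was 0.32 (log2 CPM) for Hspa1a and 0.36 for Hspa1b, whereas their standard deviations over mice within groups were 1.27 and 1.28. Both gaps were wider than the median gap of 0.146 over the members and 0.242 over all tested genes. A larger deviation over mice was found for 0.355% of all tested genes in the case of Hspa1a and 0.347% in that of Hspa1b, and for 0.252% and 0.239% of the 7529 genes with at least 10 CPM.

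The coding sequences of the pair are nearly the same, which bears on how far the table can tell them apart. Of all 31-base words in their transcripts, 63.8% of those of Hspa1a occur in Hspa1b and 67.6% of those of Hspa1b in Hspa1a, but none of those in the last 300 bases, the end that a 3' library reads. Summed, the pair reached 46.2, 109, 36.2 and 27.97 CPM in control mice and 17.4, 10.03, 129.8, 46.2 and 93.5 CPM in mutants. Hspa1a made up 20.5% to 29.2% of the summed counts in every mouse. The sum thus showed the same high and low mice as each gene. An overlapping gene on the other strand of Hspa1a, Gm20481, had 0 to 2 counts per mouse.

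**Figure D2:**
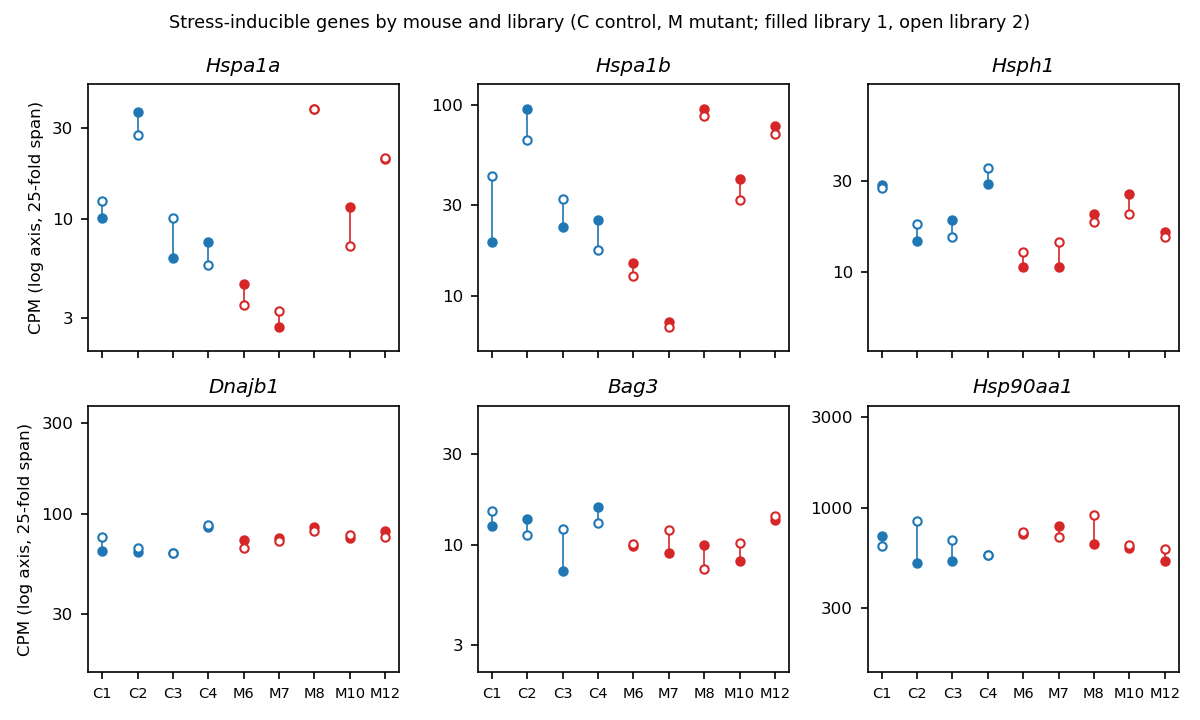
Level of 6 stress-inducible genes (y axis, CPM on a log axis of the same 25-fold span in every panel) in each mouse (x axis; C control, M mutant), with the 2 technical libraries joined by a line. Hspa1a and Hspa1b range widely among mice of both groups, from 2.93 CPM in mutant 7 to 37.6 CPM in mutant 8 for Hspa1a. Their median gaps between libraries are 0.32 and 0.36 (log2 CPM). The other genes range less among mice.

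The other inducible genes did not share this order, though some mice stood alike. Dnajb1, the J-domain partner of inducible HSP70, had 71.4, 65.2, 62.1 and 85.9 CPM in control mice and 68.9, 73.9, 83.4, 75.9 and 77.9 CPM in mutants. Control 2, a mouse high in Hspa1a, was among the low mice here, and mutants 6 and 7 lay within the range of the rest (log2 fold change 0.10, SE 0.10). Among the mutants alone the order was close to that of Hspa1a, with 6 and 7 lowest, then 10 and 12, and 8 highest. Hsp90aa1, the inducible cytosolic HSP90, was at 663, 715, 611 and 569 CPM in control mice and 746, 769, 768, 633.5 and 579.7 CPM in mutants. Mutants 6 and 7, the lowest for Hspa1a, were among the highest for Hsp90aa1 (0.13, SE 0.11, edgeR adjusted p = 0.730). So were mutant 8 and control 2, the highest for Hspa1a. The standard deviations over mice were 0.15 for Dnajb1 and 0.17 for Hsp90aa1 on the log2 scale.

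Lower values in mutants, none past the test, were found for 3 co-factors of the inducible set. Hsph1, encoding the HSP110 exchange factor, had 27.9, 16.5, 16.8 and 31.6 CPM in control mice and 11.95, 12.2, 19.3, 23.0 and 15.6 CPM in mutants. Controls 1 and 4 were the highest mice and mutants 6 and 7 the lowest, while controls 2 and 3 lay among the mutants (log2 fold change -0.50, SE 0.24, p = 0.0574 and edgeR adjusted p = 0.520). Bag3, a BAG-family co-chaperone that routes clients to autophagy, had 14.3, 12.3, 9.94 and 14.5 CPM in control mice and 10.1, 10.4, 8.94, 9.24 and 14.0 CPM in mutants. Mutant 12 stood with the controls and control 3 with the mutants (-0.28, SE 0.16, adjusted p = 0.586). Chordc1, an HSP90 co-chaperone gene, had 29.5, 24.4, 24.99 and 33.9 CPM in control mice and 25.9, 27.8, 21.1, 24.2 and 21.5 CPM in mutants. Its groups overlapped between 24.4 and 27.8 CPM (-0.23, SE 0.12, adjusted p = 0.571). Dnajb4, a J-domain gene, was at 7.31 ± 1.18 CPM over the 4 control mice and 7.13 ± 1.75 CPM over the 5 mutant mice (mean ± SD, n = 4 and 5).

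The constitutive cytosolic chaperones were steady, with 4 of 9 above 0 and a median log2 fold change of -0.025. Hspa8, the constitutive HSP70 known as HSC70, had 2106, 1612, 1840 and 2246 CPM in control mice and 1558, 1667, 1678, 1898 and 1896 CPM in mutants. The highest mice were controls 1 and 4 and the lowest were mutant 6 and control 2 (-0.17, SE 0.11, edgeR adjusted p = 0.645). Hsp90ab1, the constitutive HSP90, had 1370, 1333, 1364 and 1188 CPM in control mice and 1204, 1458, 1611, 1322 and 1346 CPM in mutants. Control 4 and mutant 6 were its lowest mice and mutants 7 and 8 its highest (0.08, SE 0.10, adjusted p = 0.819). Hspa14, an HSP70-related protein of the ribosome-associated complex, was at 75.1, 69.4, 84.7 and 81.4 CPM in control mice and 88.4, 96.4, 78.5, 83.1 and 81.4 CPM in mutants. Mutants 6 and 7 were above every control and the other 3 mutants were not (0.14, SE 0.09, adjusted p = 0.640).

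The other 6 constitutive members also differed little between groups. Hspa4, an HSP110-family gene, was at 120.2 ± 7.198 CPM in control mice and 118.1 ± 14.3 CPM in mutants (SD, n = 4 and 5, as for all pairs of values with ± from here on), and its relative Hspa4l at 19.4 ± 4.15 and 18.02 ± 0.30 CPM. Of the J-domain genes, Dnaja1 was at 101 ± 16.5 CPM in control mice and 96.7 ± 17.8 CPM in mutants, and Dnaja2 at 73.2 ± 5.10 and 80.7 ± 11.6 CPM. Dnajb6 was at 89.9 ± 6.99 CPM in control mice and 87.5 ± 3.76 CPM in mutants, and Dnajc7 at 54.0 ± 2.40 and 55.4 ± 5.43 CPM. For each of the 6 the group means differed by less than the larger standard deviation. Hspa4l was nearly level over the 5 mutants, from 17.6 to 18.3 CPM, while the controls spread from 14.6 to 24.2 CPM.

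Of the 6 co-chaperones, 4 were above 0 and 2 below, with a median log2 fold change of 0.015. Fkbp4, the immunophilin of steroid receptor complexes, had 206.8, 179, 206.2 and 214 CPM in control mice and 174.5, 166, 185.9, 191 and 169 CPM in mutants. All mutants were below 3 of the controls, and only control 2 lay within the mutant range (-0.18, SE 0.09, p = 0.0549 and edgeR adjusted p = 0.514). Ptges3, encoding the HSP90 co-chaperone p23, had 30.3, 25.9, 15.6 and 21.8 CPM in control mice and 15.3, 11.2, 17.8, 19.0 and 27.6 CPM in mutants. Mutant 7 was the lowest mouse, but its libraries disagreed, with 5.36 CPM in the first and 19.4 CPM in the second. The log2 fold change of Ptges3 was -0.37 (SE 0.24, adjusted p = 0.632), -0.24 without that first library, and 0.10 when the total count was a covariate.

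The other co-chaperones had nearly equal means in both groups. Bag1, an exchange factor of HSP70, was at 134 ± 17.6 CPM in control mice and 137.5 ± 6.39 CPM in mutants, and Stip1, which bridges HSP70 and HSP90, at 69.8 ± 5.81 and 70.03 ± 10.1 CPM. Ahsa1, an activator of the HSP90 ATPase, was at 84.3 ± 6.09 CPM in control mice and 85.7 ± 11.5 CPM in mutants. Stub1, the ubiquitin ligase CHIP that marks chaperone clients for degradation, was at 158.5 ± 16.9 and 162 ± 9.79 CPM.

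All 8 TRiC/CCT subunit genes had log2 fold changes above 0, from 0.04 to 0.27 with a median of 0.125, but none passed the test and the groups overlapped for each. The subunits assemble into 1 complex, while their genes lie on 8 different chromosomes. Cct6a had 158, 155.9, 179 and 178 CPM in control mice and 202, 258, 164, 182 and 203 CPM in mutants. All mutants but number 8 were above every control, and mutant 7 was far the highest (0.27, SE 0.12, p = 0.0526 and edgeR adjusted p = 0.509). Cct2 had 452, 415, 466 and 433 CPM in control mice and 503, 622, 443, 455 and 483 CPM in mutants, again with mutant 7 highest (0.18, SE 0.11, adjusted p = 0.594). Tcp1 had 171, 159.9, 152 and 171 CPM in control mice and 160.4, 217.5, 150.2, 180.3 and 206 CPM in mutants. Mutants 7, 10 and 12 were above every control while mutant 8 was below all of them (0.16, SE 0.12, adjusted p = 0.675).

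The remaining 5 subunits differed less between groups, and not in the same mice throughout. Cct3 was at 179 ± 8.14 CPM in control mice and 197 ± 20.6 CPM in mutants, with mutant 10 highest (224 CPM) and mutant 7 lowest (166.3 CPM). Cct5 was at 265 ± 17.9 and 286 ± 22.2 CPM, with mutant 7 highest (316 CPM). Cct4 was at 105 ± 11.7 CPM in control mice and 110.2 ± 29.5 CPM in mutants, with 148.7 CPM in mutant 7 and 75.3 CPM in mutant 8. Cct7 was at 274 ± 15.04 and 283 ± 15.2 CPM and Cct8 at 133 ± 20.96 and 137 ± 21.5 CPM. Averaged over the 8 genes, the difference from the control mean was 0.08, -0.09, -0.04 and 0.05 (log2 CPM) in controls and 0.05, 0.33, -0.07, 0.09 and 0.19 in mutants. Mutant 7, which stood highest, is also the mouse with the largest total count. Without mutant 7, 6 of 8 subunits were above 0 with a median of 0.081, and when the total count was a covariate 8 of 8 were above 0 with a median of 0.157. Subunits of 1 complex measured in the same mice are not independent, and no p is given for their joint direction.

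The 4 mitochondrial chaperone genes were also above 0, from 0.003 to 0.18 with a median of 0.051. In first libraries alone the median was 0.176 with 4 of 4 above 0, in second libraries alone -0.056 with 1 of 4, and without mutant 7 it was 0.017 with 2 of 4. Hspa9, the mitochondrial HSP70 known as mortalin, had 81.7, 68.6, 72.7 and 74.3 CPM in control mice and 75.7, 92.3, 82.1, 86.2 and 86.0 CPM in mutants. Mutants 7, 8, 10 and 12 were above every control and mutant 6 was not (0.18, SE 0.09, p = 0.0543 and edgeR adjusted p = 0.514). Hspd1 had 190.3, 168, 173 and 183 CPM in control mice and 156, 222, 166, 183 and 194 CPM in mutants, so that the lowest and the highest mouse were both mutants (0.05, SE 0.11). Hspe1, its partner gene on the other strand, was at 275 ± 37.5 and 275 ± 39.8 CPM. Trap1, the mitochondrial HSP90, had 110.4, 97.3, 117.1 and 116.7 CPM in control mice and 107.7, 113, 116.7, 120.6 and 115 CPM in mutants, with control 2 the lowest (0.06, SE 0.08).

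The spread of the chaperone genes over mice was about that of other genes of at least 10 CPM. Their median standard deviation over mice within groups was 0.164 (log2 CPM) against 0.215 over all tested genes and 0.168 over the 7529 genes of at least 10 CPM. The median gap between the libraries of a mouse was 0.146 against 0.242 over all tested genes. These include many genes of lower level, and the gap was not compared at a matched level. Of the 36 members, 17 spread more than the median gene of at least 10 CPM and 19 less. By role the median deviation was 0.257 for the stress-inducible members, 0.136 for the constitutive cytosolic ones, 0.147 for the co-chaperones, 0.167 for TRiC/CCT and 0.131 for the mitochondrial ones. Outside the pair Hspa1a and Hspa1b, the largest deviations were 0.44 for Ptges3, 0.43 for Hsph1 and 0.31 for Cct4.

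**Figure D3:**
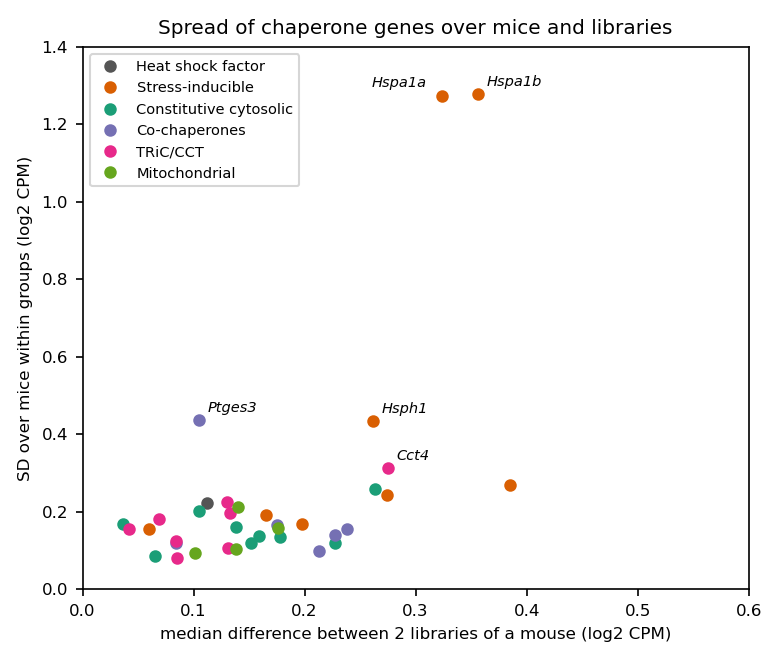
Standard deviation over mice within groups (y axis, log2 CPM) against the median difference between the 2 libraries of a mouse (x axis, log2 CPM) for each of the 36 tested genes, coloured by role. Hspa1a and Hspa1b stand apart at 1.27 and 1.28, while the others lie at or below 0.44.

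Other genes of the chaperone pathways gave the same picture, with 0 genes called by edgeR in each of 5 lists. Regulators of HSF and other heat-induced genes had 3 above and 4 below 0 (median -0.071), with the HSP70 relative Hspa2 at -0.29 (SE 0.19). Further HSP90 co-chaperones and immunophilins had 3 above and 9 below 0 (median -0.106), and 2 of 12 had an unadjusted p under 0.05, as had 9.85% of all tested genes. Groups that did not overlap, named below for 3 genes of these lists, occurred for 4% of all tested genes. Among them was Unc45a, a myosin chaperone gene, at -0.29 (SE 0.12, adjusted p = 0.432), whose groups did not overlap.

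Further HSP70 regulators and J-domain genes had 11 above and 5 below 0 (median 0.095), and 1 of 16 had an unadjusted p under 0.05, against 9.85% of all tested genes. The 2 with the smallest p were Dnajc8 at 0.21 (SE 0.09, edgeR adjusted p = 0.443) and Dnajc13, of endosomes, at 0.23 (SE 0.12). Prefoldin, which hands nascent chains to TRiC/CCT, and its partners had 4 above and 5 below 0 (median -0.040). In that list Pfdn2 was at -0.21 (SE 0.09, adjusted p = 0.431), with groups that did not overlap, and the phosducin-like gene Pdcl at 0.30 (SE 0.14). Mitochondrial folding and protease genes had 6 above and 3 below 0 (median 0.016), with the protease subunit gene Clpx at 0.23 (SE 0.11), whose groups did not overlap, and Dnajc19 at 0.31 (SE 0.17).

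The pattern over mice of other stress-linked genes was not that of the inducible HSP70 pair, although control 2 was high in the pair and in the immediate early genes. The cold-shock genes Rbm3 and Cirbp, which encode RNA-binding proteins, were the context genes that passed the test, at log2 fold changes of 1.19 (SE 0.16) and 0.92 (SE 0.14), and edgeR adjusted p-values of 0.0368 and 0.0401. No gene at all was called in 10 of the 22 alternatives, so both calls are lost there. Their summed level was 371 to 628 CPM in control mice and 1050 to 1390 CPM in mutants, so mutants with little Hspa1a (6 and 7) and with much (8 and 12) were all above the controls in it. Immediate early genes, which respond within minutes to signals and also to cell handling, were below 0 for 15 of 15 tested genes (median -0.561) with 0 called by edgeR and 6 at an unadjusted p under 0.05 (9.85% of all genes). The 2 with the smallest p were Ier3 at -0.56 (SE 0.18, adjusted p = 0.337) and Btg2 at -0.62 (SE 0.24, adjusted p = 0.408).

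Per mouse, the summed immediate early level was 573.5, 508, 303.9 and 275 CPM in control mice and 213, 370, 336, 263.5 and 339 CPM in mutants. Controls 1 and 2 were the highest, and of these only control 2 was high in Hspa1a and Hspa1b. Averaged over the 8 stress-inducible genes, the difference from the control mean was 0.06, 0.27, -0.27 and -0.05 (log2 CPM) in controls and -0.49, -0.56, 0.28, -0.14 and 0.12 in mutants. Hspa1a and Hspa1b weigh most in this mean, since their standard deviations over mice were 1.27 and 1.28. The next among the 8 was 0.43, for Hsph1, so the mean does not describe the inducible genes as a class. Erythroid markers summed to 4.86 to 49.6 CPM in control mice and 11.5 to 55.3 CPM in mutants, and late neutrophil markers to 424 to 934 CPM and 198 to 431 CPM. The late neutrophil genes did not go one way, with 3 of 7 above 0, 4 below and a median log2 fold change of -0.028. The part of such cells and of cell handling in the levels of the inducible genes was not tested.

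**Figure D4:**
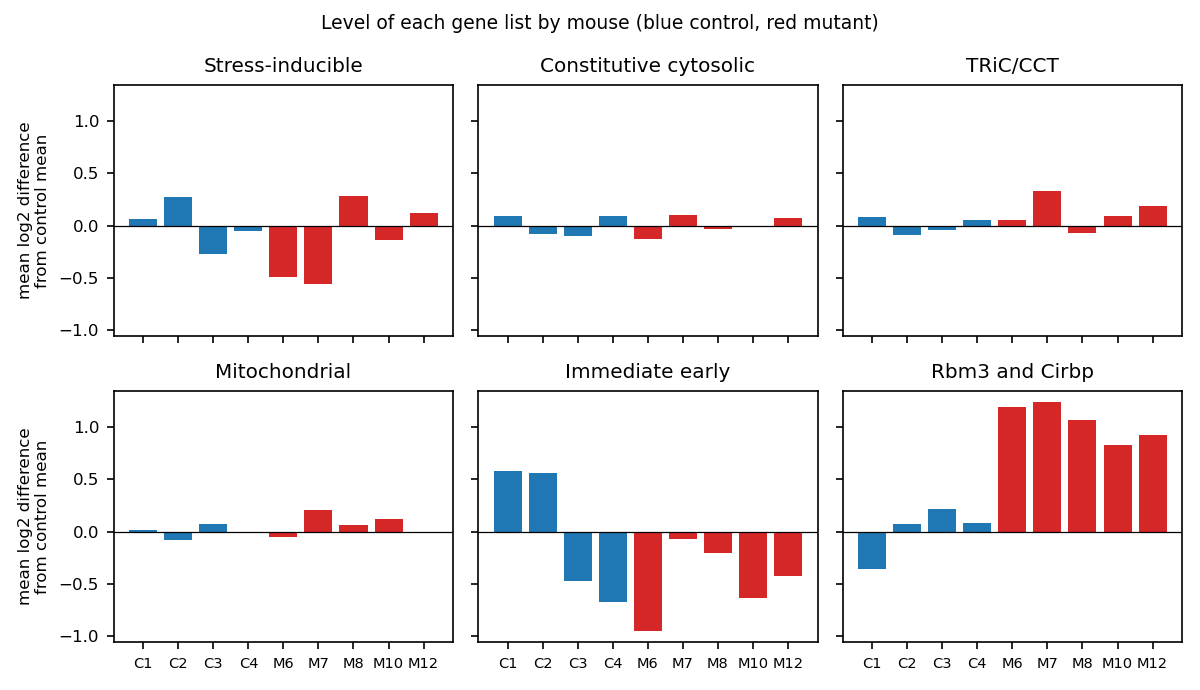
Mean log2 difference from the control mean over the tested genes of each list (y axis) in each mouse (x axis; blue bars control, red bars mutant). The stress-inducible list is highest in control 2 and mutant 8, the immediate early list in controls 1 and 2, and Rbm3 and Cirbp in all 5 mutants. Hspa1a and Hspa1b, with the widest spread over mice, weigh most in the stress-inducible mean.

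Some members' counts are less certain than their depth alone would make them. More than 10% of the 31-base words in the last 300 bases occur in another gene, mostly a pseudogene, for 8 members. These shares were 81.7% for Hspa8, 62.2% for Hspe1, 54.3% for Dnaja1, 51.3% for Hspd1, 43.4% for Hsp90aa1, 38.1% for Ahsa1, 30.9% for Hspb1 and 12.2% for Cct3. The spans of several members overlap a gene on the opposite strand, among them Cct6a (Psph), Tcp1 (Mrpl18 and Acat3), Cct7 (Pradc1), Cct8 (Usp16), Trap1 (Dnase1), Dnaja1 (Smu1), Dnajc7 (Cnp), Stub1 (Jmjd8), and Hspd1 with Hspe1. The strand setting of the counting is not stated in the sources at hand, and whether the 3' ends that were read overlap was not tested. Gm45902, which overlaps Hspa14 on the same strand, had 27 to 72 counts per mouse.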

How the data were processed

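RNA of 9 mice was measured in 18 libraries. The authors deposited 1 table of estimated counts per gene; Salmon 1.3, bcl2fastq and FastQC are listed with genome build GRCm38, per the submitters' processing notes, without saying what each was used for. Annotation release, strand setting and use of molecular identifiers are not given in the sources at hand. The first 18 characters of each table ID were matched to GENCODE mouse release 21 (54094 of 54347 matched), which also gave the positions on GRCm38.

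For each mouse the estimated counts of its 2 libraries were added and rounded. Library totals ran from 3825500 to 15071673, and floors stated in CPM cover only counting error. The test was edgeR's quasi-likelihood F-test (edgeR 4.0.16, R 4.3.3) after filterByExpr at a minimum count of 10 and TMM scaling, without covariates, with 2-sided p-values adjusted by Benjamini-Hochberg over 12973 genes. SE was obtained from the unshrunk log2 coefficient and F, and 95% intervals come from the same fit. CPM values used TMM factors. No mouse number occurs in both groups, so none were paired. CPM were not compared between genes, since 3' counts carry no length scale.

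Alternatives were DESeq2 1.42.0, limma-voom (limma 3.58.1) on mouse sums and on the 18 libraries with and without a replicate block, RLE and upper-quartile factors, other filters, each library alone, the total count as covariate, omission of each mouse in turn, and a threshold of 0.1. Leaving out the first library of mutant 7 was added after seeing the data. Values per mouse were given for Hsf1, Hspa1a, Hspa1b, Hsp90aa1, Hsp90ab1, Hspa8, Hsph1, Dnajb1, Bag3, Hspd1 and Tcp1, for any member called, for the 6 members with the smallest p and for the 2 with the smallest p of each role; other members have group means, and of each other list the 2 genes with the smallest p, and any called, were named, except that some are not reported here. Further values of single mice and extremes of spread were picked after seeing them. The members and all lists were chosen with earlier results of these data known. Promoter windows are from RefSeq on GRCm38.p6. A comparison of protein sequences was planned and is not analysed here.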

Additional observations from a re-analysis of the deposited data

Results flagged for a closer look

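Of 72 groups of mice tested (36 genes in each group), 3 held 1 mouse far from the others, each time mutant 12 on the high side. Chance flags about 1 in 20 such groups. Bag3 was at 13.99 CPM in mutant 12, where the next mutant had 10.4. Hspa4 was at 142.8 CPM in mutant 12, where the next mutant had 117. Stip1 was at 87.8 CPM in mutant 12, where the next mutant had 68.1.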

How the results depend on the processing

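No member was called in any of the 22 alternatives, in which the smallest adjusted p of a member ranged from 0.303 (Bag3, without mutant 12) to 0.982 (total count as covariate). Over all genes, the 9 calls became 88 with DESeq2, 21 without a filter, 62 with limma-voom on 18 libraries without a replicate block and 60 with the replicate block, 3 with second libraries alone, 0 to 7 when leaving out 1 mouse, and 0 at a mean of 10 CPM, with first libraries alone, without the first library of mutant 7 and with the covariate. The replicate block (library number) changed no member's call. Of the 19 members with values per mouse, 12 kept their sign in all 21 refits, as did 3 of the other 17, of which Hspe1 turned most often (same sign in 9 of 21, -0.25 to 0.20).

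Among the 19, signs turned as follows, never with a call. Hspa1a was at -0.32 with limma-voom on mouse sums, -0.32 on 18 libraries with or without the replicate block, and -0.32 with the covariate, and Hspa1b at -0.28, -0.23 and -0.23 in the first 3 of these. With the covariate Hsp90aa1 was at -0.017, Hsp90ab1 at -0.014 and Ptges3 at 0.1. Hsp90ab1 was at -0.004 in first libraries, and Hspd1 at -0.055 and Trap1 at -0.057 in second libraries. Leaving out 1 mouse gave -0.66 (mutant 8) to 0.76 (control 2) for Hspa1a, -0.32 to 0.67 for Hspa1b, -0.027 to 0.10 for Hspd1 and -0.002 to 0.086 for Trap1. The cause of these turns was not tested. Depth limits Hsf2 and Hspb1, which were below the filter. Without a filter Hspb1 had the smallest p of the members (adjusted p = 0.56).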
